A study of Mus musculus with 6 samples.

Results

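This account covers 10 genes for secreted proteins that draw in, expand or accompany neutrophils and their precursors: the CXC chemokines Cxcl1, Cxcl2, Cxcl3 and Cxcl5, the colony-stimulating factors Csf1, Csf2 and Csf3, the IL-6 family cytokines Il6 and Lif, and the neutrophil-associated lipocalin Lcn2. They are 10 of the 22116 named genes in a table of read counts, and all 10 were among the 12288 genes with enough reads to be tested. The genes were chosen by symbol, with the treatment differences in these same libraries already known. Their fold changes are therefore given as a description, with the spread between libraries and without a p-value.

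The libraries come from 4T1, a mouse mammary gland epithelial cancer line used as a model of triple-negative breast cancer. Cells of the control group received the solvent DMSO, and cells of the other group received P3FI-90, an inhibitor of the histone demethylase KDM3B, at 10 µM. Both treatments lasted 24 h, each group has 3 libraries, and the line carried no other labelled change. The labels do not say whether the libraries of a group came from separate cultures, so the p-values given for other genes measure the spread between these libraries only. Each library held 31327094 to 37395732 reads counted on named genes, and values below are normalized counts, that is, counts scaled by edgeR's TMM method to the mean library size.

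Cxcl1, Cxcl2, Cxcl3 and Cxcl5 belong to the CXC chemokines with a Glu-Leu-Arg motif before the paired cysteines, which act on the receptor CXCR2 and guide neutrophils out of the bone marrow and into tissue. G-CSF, the product of Csf3, drives the production and release of neutrophils, GM-CSF, the product of Csf2, supports granulocytes, macrophages and dendritic cells, and M-CSF, the product of Csf1, supports monocytes and macrophages. Tumors of the 4T1 line are known for a strong expansion of granulocytes in the host. These genes are classical targets of NF-κB, C/EBP and AP-1 factors, and many of their mRNAs are short-lived.

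Promoter sequences of 8 of the 10 genes were present in the RefSeq table of the GRCm38.p6 build. Those of Csf3 and Cxcl5 are not shown. The counts themselves were made on GRCm39, per the submitters' processing notes, so the coordinates here serve only to place the sequences. The windows below hold the 120 bases before the transcription start, 5′ to 3′ on the coding strand, with matches to the searched motifs in capitals. Cxcl1, Cxcl3 and Cxcl2 carry the same NF-κB match at log2 fold changes from −1.49 to −0.28, and Il6 carries a match at 1.08 (SE 0.66). The window of Csf2, at 4.60, holds none, and the promoter of Lcn2, at −1.68, had none either. A link between these matches and the fold changes was not tested. The windows are chr5:90891125-90891244, plus strand for Cxcl1, chr5:90785981-90786100, plus strand for Cxcl3, chr5:90903779-90903898, plus strand for Cxcl2, chr5:30012994-30013113, plus strand for Il6, and chr11:54249900-54250019, minus strand for Csf2.
Cxcl1: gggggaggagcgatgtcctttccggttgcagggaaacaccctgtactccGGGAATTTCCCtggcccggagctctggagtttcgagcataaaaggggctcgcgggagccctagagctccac
Cxcl3: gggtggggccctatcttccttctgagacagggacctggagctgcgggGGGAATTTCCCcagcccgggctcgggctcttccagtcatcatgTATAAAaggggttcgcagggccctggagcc
Cxcl2: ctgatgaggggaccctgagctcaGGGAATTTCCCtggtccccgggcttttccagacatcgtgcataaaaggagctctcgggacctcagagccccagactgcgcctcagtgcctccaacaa
Il6: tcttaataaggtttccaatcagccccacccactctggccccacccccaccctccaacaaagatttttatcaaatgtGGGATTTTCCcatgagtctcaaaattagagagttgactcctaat
Csf2: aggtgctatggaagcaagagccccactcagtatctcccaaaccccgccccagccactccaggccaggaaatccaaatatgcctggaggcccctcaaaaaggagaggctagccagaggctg

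The capitals mark matches to the NF-κB consensus and, in Cxcl3, a TATA box (TATAAA). On both strands the search covered 250 bases before and 50 bases after the start for the NF-κB consensus, AP-1 (TGANTCA), C/EBP (TTGCNNAA), STAT (TTCNNNGAA), the TATA box and the interferon-stimulated response element (ISRE). An NF-κB match was present in 6 of the 8 promoters, those of Cxcl1, Cxcl2, Cxcl3, Il6, Csf1 and Lif, against 8.46% of 32851 mouse promoters of the same length. It began at position −71 in Cxcl1, −73 in Cxcl3 and −97 in Cxcl2, counted back from the start, and in these 3 genes it read GGGAATTTCC on the coding strand and, shifted by a base, as an overlapping match on the other strand. AP-1 matches were found in Il6 and Lif (7.81% of all promoters), and C/EBP matches in Il6, Lcn2 and Csf2 (10.8%), all of them upstream of the windows printed here. STAT and ISRE matches were found in 0 of the 8 promoters, against 8.30% and 3.44% of all promoters. A match describes letters in the sequence and does not show that a factor was bound.

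The labelled cell type was checked by its markers. The 6 epithelial markers Epcam, Cdh1, Krt7, Krt8, Krt18 and Krt19 were all tested, and their summed normalized counts were 149858 to 158390 in DMSO and 62410 to 65543 after P3FI-90, and all 6 genes fell, with a median log2 fold change of −1.18. Markers of other cells were low. The 10 leukocyte markers summed to 368 to 434 normalized counts in DMSO and 279 to 409 after P3FI-90, nearly all from Cd68, with Ly6g, Adgre1 and Tyrobp at 0 in every library. The 7 fibroblast markers summed to 1411 to 1489 and 1001 to 1096, nearly all from Pdgfra, with Thy1 at 0 in every library. The 5 endothelial markers summed to 12.0 to 29.6 and 36.0 to 57.1. The part of these lower epithelial markers in the counts of the 10 genes was not tested. Kdm3b itself, whose product P3FI-90 inhibits, had 2851 ± 67.4 and 3109 ± 55.7 normalized counts in DMSO and P3FI-90 libraries (SD, n = 3).

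After P3FI-90 treatment, Cxcl5, Csf3, Lcn2 and Cxcl1 had much lower counts, Csf1, Cxcl3 and Lif moderately lower counts, and Csf2 much higher counts. All 3 P3FI-90 libraries lay below all 3 DMSO libraries for 7 of the 10 genes and above them for 2, Csf2 and Il6, while the groups overlapped for Cxcl2. Over all genes tested, 40.2% lay entirely below and 41.0% entirely above, and since this contrast was known when the genes were chosen, nothing is read from the counts of members. The median log2 fold change of the 10 genes was −0.61, against 0.013 over all genes tested. In bulk RNA, fewer cells that express a gene and less of its RNA per cell cannot be told apart.

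**Figure D1:**
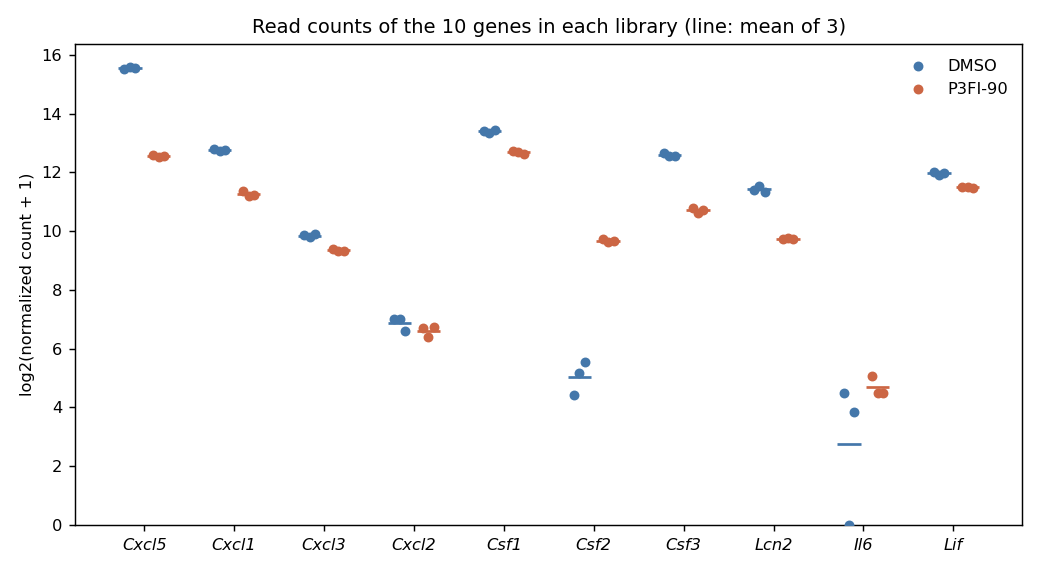
Normalized counts of the 10 genes on a log2(count + 1) axis, 1 point per library, with 3 DMSO libraries (blue) and 3 P3FI-90 libraries (orange-red) per gene and lines at the mean of the log2 values. Cxcl5 is the highest gene in DMSO and lies just below Csf1 after P3FI-90, Csf2 is the only gene whose P3FI-90 libraries lie far above the DMSO libraries, and the groups overlap for Cxcl2.

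Cxcl5 (ENSMUSG00000029371), the chemokine also known as LIX, had the most counts of the 10 genes in DMSO, while after P3FI-90 Csf1 had more. Its normalized counts were 46723, 49479 and 48314 in the DMSO libraries and 6144, 5896 and 6071 in the P3FI-90 libraries. The groups were far apart and each was tight, with means of 48172 ± 1383 and 6037 ± 127 (SD, n = 3), a 7.98-fold lower level after treatment and a log2 fold change of −3.00 (SE 0.033). In the order of fold changes over 12288 genes, Cxcl5 stood at place 49 from the bottom. The gene took between 0.123% and 0.131% of the reads on named genes in DMSO and between 0.0181% and 0.0189% after P3FI-90.

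Cxcl1 (ENSMUSG00000029380), known as KC, was the next most abundant of these chemokines. It had 7183, 6772 and 6959 normalized counts in DMSO and 2640, 2360 and 2424 after P3FI-90. This was 2.82-fold lower, a log2 fold change of −1.49 (SE 0.045), with no overlap. Cxcl3 (ENSMUSG00000029379) differed less, with 925, 882 and 948 normalized counts in DMSO, 677, 640 and 639 after P3FI-90 and a log2 fold change of −0.49 (SE 0.071). Its groups still did not overlap, since the spread within each was small. Cxcl2 (ENSMUSG00000058427), known as MIP-2 and next to Cxcl1 on the chromosome, was scarce, with 128, 129 and 97.0 normalized counts in DMSO and 103, 82.7 and 106 after P3FI-90. Here 2 of the P3FI-90 libraries lay above the lowest DMSO library, and the log2 fold change of −0.28 was little more than its SE of 0.21. Of the transcript windows of 50 bases, 5.84% in Cxcl2 and 4.29% in Cxcl3 also occur in transcripts of other genes. Those of Cxcl2 occur in Cxcl3 alone, and those of Cxcl3 most often in Cxcl2 and Vmn2r76. A part of the reads of either gene therefore depends on how shared reads were assigned. For Cxcl5 the share was 0.693%, and for Cxcl1 it was 0.

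The mixture of the 4 chemokines differed between the groups. To compare genes with each other, counts were also expressed as normalized CPM per kilobase of exons in the GENCODE M21 annotation. On this per-length scale the 4 chemokines summed to 852 ± 17.9 in DMSO and 137 ± 4.32 after P3FI-90 (SD, n = 3), which is 6.24-fold lower. Cxcl5 made up 86.5% ± 0.672 of that sum in DMSO and 67.6% ± 0.846 after P3FI-90, so that Cxcl5 remained the main chemokine transcript in every library. The share of Cxcl1 went from 12.4% ± 0.630 to 27.5% ± 0.806, that of Cxcl3 from 0.879% ± 0.0449 to 3.89% ± 0.0639, and that of Cxcl2 from 0.191% ± 0.0297 to 0.979% ± 0.107. The shares of these 3 genes were higher although their mean levels were lower, since the level of Cxcl5 was lower by more.

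The 4 chemokine genes lie in 1 cluster on chromosome 5, in the order Cxcl5, Ppbp, Pf4, Cxcl3, Cxcl15, Cxcl1 and Cxcl2. Ppbp, which encodes the precursor of the platelet chemokine CXCL7 and sits beside Cxcl5, had 55.5 ± 7.66 normalized counts in DMSO and 70.4 ± 10.97 after P3FI-90 (SD, n = 3). Its log2 fold change was 0.34 with an SE of 0.25, and it was not called by the quasi-likelihood test of edgeR (adjusted p = 0.228). Pf4 and Cxcl15 had too few reads to be tested, with at most 4 counts in a library. Of the genes that border the cluster, Rassf6 fell beside Cxcl5 (edgeR log2 fold change −0.62, SE 0.075, adjusted p = 3.58e-06), and Mthfd2l, which encodes a mitochondrial folate enzyme, fell beside Cxcl2 (−0.97, SE 0.092, adjusted p = 2.32e-07). The outer neighbour Albfm1 fell by −3.86 (SE 0.86, adjusted p = 8.82e-04) from only 19.9 ± 5.51 normalized counts, and Epgn, a gene of the EGF family, stood at 0.34 (SE 0.47, adjusted p = 0.514).

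**Figure D2:**
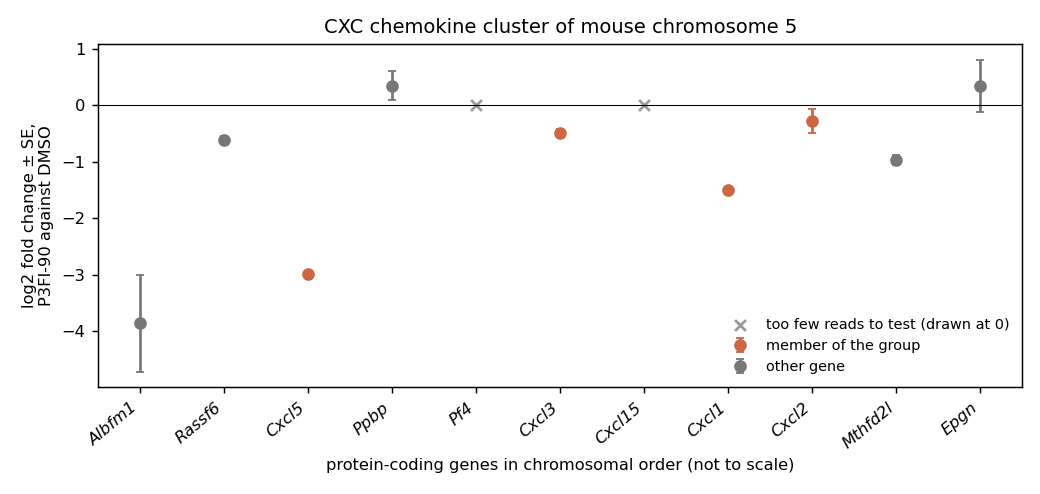
Log2 fold change (P3FI-90 against DMSO, with SE) of the protein-coding genes of the CXC chemokine cluster and 2 genes on each side, in chromosomal order and not to scale. The members Cxcl5, Cxcl3, Cxcl1 and Cxcl2 stand at −3.00, −0.49, −1.49 and −0.28, and Ppbp, between the first 2 of them, at 0.34.

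The 3 colony-stimulating factors went different ways. Csf3 (ENSMUSG00000038067), which encodes G-CSF, had 6514, 6001 and 6076 normalized counts in DMSO and 1753, 1591 and 1686 after P3FI-90. It was thus 3.70-fold lower, with a log2 fold change of −1.89 (SE 0.049). Csf1 (ENSMUSG00000014599), which encodes M-CSF, had 10968, 10448 and 11064 normalized counts in DMSO and 6775, 6576 and 6384 after P3FI-90. The difference was smaller, 1.65-fold or −0.72 on the log2 scale (SE 0.037), but the groups were again far apart relative to their spread.

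Csf2 (ENSMUSG00000018916), which encodes GM-CSF, moved in the opposite direction. Its raw counts were 20, 29 and 45 under DMSO and 905, 884 and 832 under P3FI-90. Normalized, these were 33.7 ± 12.9 and 819 ± 26.2 (SD, n = 3), a 24.3-fold higher level and a log2 fold change of 4.60 (SE 0.18). The lowest P3FI-90 library exceeded the highest DMSO library by a wide margin, and the relative spread was larger in DMSO (38.2% of the mean) than after treatment (3.20%). In the order of fold changes Csf2 stood at place 123 from the top. Its value ranged from 4.32 without the first DMSO library to 4.91 without the third. Of the 50-base transcript windows of Csf2, 6.39% are shared with Gm12223, whose exons overlap those of Csf2. That gene was not analysed here, and its part in the counts was not tested.

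On the per-length scale Csf3 exceeded Csf2 in DMSO by 182, 97.3 and 74.9 times in the 3 libraries, and after P3FI-90 by 1.17, 1.13 and 1.17 times. The summed level of the 3 factors was 185 ± 6.35 in DMSO and 98.5 ± 3.21 after P3FI-90. Csf3 went from 67.7% ± 1.02 of that sum to 34.3% ± 0.758, Csf2 from 0.654% ± 0.259 to 29.6% ± 0.139, and Csf1 from 31.7% ± 0.770 to 36.1% ± 0.860. On this scale G-CSF transcripts thus led the mixture in DMSO, while after P3FI-90 no factor held more than 36.1% of the sum on average. The second part depends on the length used. With the longest transcript of each gene as its length, Csf1 led after P3FI-90. It had 44.9 ± 1.33, against 33.8 ± 1.64 for Csf3 and 29.2 ± 0.934 for Csf2. In DMSO, Csf3 still led at 125 ± 5.59, against 73.9 ± 2.26 for Csf1.

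**Figure D3:**
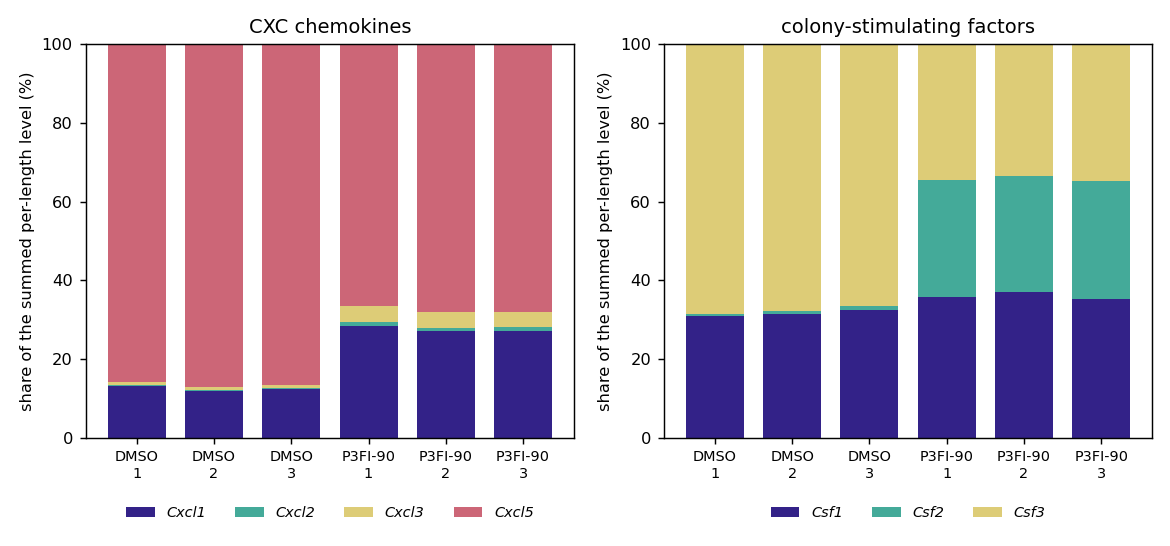
Share of each gene in the summed per-length level of its family in each of the 6 libraries, for the 4 CXC chemokines (left) and the 3 colony-stimulating factors (right). The group mean of the Cxcl5 share is 86.5% in DMSO and 67.6% after P3FI-90, and that of the Csf2 share 0.654% and 29.6%.

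Genes next to Csf2 and Csf3 were examined in the same way. On one side of Csf2 lies Il3, the gene of another hematopoietic growth factor, with 0 counts in each DMSO library and 3, 1 and 1 counts after P3FI-90, too few to be tested. Beyond it Acsl6, which encodes an acyl-CoA synthetase, fell (edgeR log2 fold change −0.26, SE 0.086, adjusted p = 0.0117). On the other side P4ha2, which encodes a subunit of collagen prolyl hydroxylase, rose (1.07, SE 0.054, adjusted p = 2.64e-10). The neighbours on both sides of Csf3 fell, the proteasome gene Psmd3 by −0.91 (SE 0.039, adjusted p = 3.83e-11) and the Mediator gene Med24 by −1.22 (SE 0.037, adjusted p = 1.32e-12), while Thra, beyond Med24, rose by 0.50 (SE 0.052, adjusted p = 6.14e-07). Both directions thus occurred within 2 genes of either factor, and over all genes tested 39.9% rose and 39.4% fell at an adjusted p under 0.05. Those were 4908 and 4841 genes, against 6177 and 3641 when libraries were scaled by total counts, which raised the median log2 fold change of all genes from 0.013 to 0.23.

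Lcn2 (ENSMUSG00000026822) encodes lipocalin 2, a siderophore-binding protein of neutrophil granules and inflamed epithelium. It had 2691, 2971 and 2578 normalized counts in DMSO and 855, 864 and 843 after P3FI-90. It was 3.22-fold lower, with a log2 fold change of −1.68 (SE 0.060), and the 3 treated libraries differed by little (SD 10.4). Lif (ENSMUSG00000034394), an IL-6 family cytokine that signals through LIFR and gp130, changed less. It had 4141, 3824 and 4038 normalized counts in DMSO and 2898, 2923 and 2838 after P3FI-90, a log2 fold change of −0.47 (SE 0.044) without overlap between the groups.

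Il6 (ENSMUSG00000025746), the gene of the prototypical cytokine of that family, was at the edge of detection. Its raw counts were 21, 0 and 13 under DMSO and 35, 24 and 22 under P3FI-90. The 0 of the second DMSO library allows up to 3 counts, or 3.61 normalized counts, for counting error only. The normalized values of the groups just failed to overlap, with 21.3 as the highest in DMSO and 21.6 as the lowest after P3FI-90. The other DMSO libraries, at 21 and 13 raw counts, lay above the 3 counts allowed for that 0. The log2 fold change of 1.08 had an SE of 0.66 and dropped to 0.54 without the second DMSO library, so a difference was not detectable in these libraries. In limma-voom, which treats low counts differently, the value was 2.05.

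**Figure D4:**
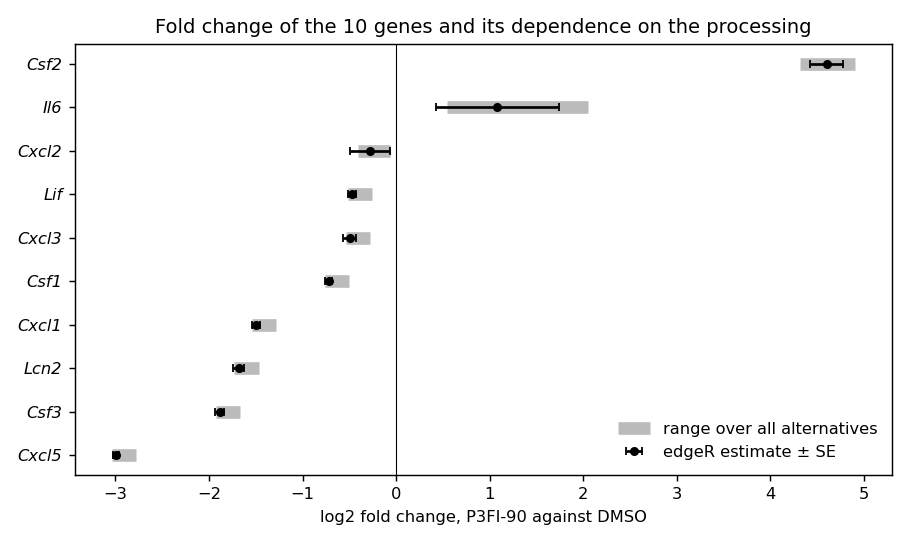
Log2 fold change of each of the 10 genes (points, with SE) and the lowest and highest value over the alternative scalings, filters, tests and left-out libraries (grey bars). Csf2 at 4.60 and Cxcl5 at −3.00 are the extremes, and the values of Il6 span 0.54 to 2.05.

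In DMSO the order of the genes on the per-length scale was Cxcl5 (737 ± 21.2), Csf3 (125 ± 5.59), Cxcl1 (106 ± 3.13), Csf1 (58.5 ± 1.79), Lcn2 (29.9 ± 2.20), Lif (26.2 ± 1.06), Cxcl3 (7.48 ± 0.275), Cxcl2 (1.62 ± 0.249), Csf2 (1.20 ± 0.459) and Il6 (0.135 ± 0.126), as mean ± SD of 3 libraries. Neighbours in this order overlapped between libraries only for Cxcl2 and Csf2. After P3FI-90 it was Cxcl5 (92.4 ± 1.95), Cxcl1 (37.6 ± 2.23), Csf1 (35.5 ± 1.05), Csf3 (33.8 ± 1.64), Csf2 (29.2 ± 0.934), Lif (18.9 ± 0.287), Lcn2 (9.29 ± 0.113), Cxcl3 (5.31 ± 0.175), Cxcl2 (1.34 ± 0.173) and Il6 (0.297 ± 0.0758). Here Csf1 overlapped with both Cxcl1 and Csf3, while the Cxcl1 libraries all lay above those of Csf3, and Csf2 had moved from place 9 to place 5. With the longest transcript of each gene as its length, Lcn2 had 57.0 in DMSO in place of 29.9, and Csf1 stood at place 2 instead of place 3 after P3FI-90.

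The genes whose profile over the 6 libraries lay nearest to each member were found by the Euclidean distance between gene-centred log2 values, among 11649 other genes with at least 20 normalized counts. With 2 groups, such likeness mostly reflects the size of the treatment difference. For Csf2 these were Rapsn (log2 fold change 4.45, distance 0.344), the growth arrest gene Gadd45g (4.49, 0.551) and Selp, which encodes P-selectin (5.06, 0.716). For Cxcl5 they were Tns4 (−2.99, distance 0.132), the chaperone gene Hspa8 (−2.85, 0.214) and the tubulin gene Tubb4b (−2.84, 0.233). Those nearest to Csf3 were Rab29, Hyls1 and Gng2, with log2 fold changes from −1.93 to −1.90. Cxcl1 was most like Micos13, Neurl3 and the ribosomal protein gene Rps21, Lcn2 most like Cd24a, Prdx3 and the cyclin gene Ccnb1, and Csf1 most like Aatf, Ints5 and Lasp1. For Cxcl3 the nearest were Zc2hc1a, Jpt1 and Eefsec, for Lif Ssh3, Zc2hc1a and Nadk, and for Cxcl2 Sync, Hhip and Fra10ac1. Il6 had no close match, the nearest being Zfp82 at a distance of 0.661, Gm38431 at 0.783 and Gm45799 at 1.23. Chosen for likeness to Il6, all of these were lowest in the second DMSO library. Gm38431 had 5183, 300 and 5256 raw counts in the DMSO libraries. The cause of that drop was not tested.

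Calls for genes related to the 10 members rest on edgeR's quasi-likelihood test with Benjamini-Hochberg adjustment over all 12288 genes, of which 39.9% were called higher and 39.4% lower, with a threshold of 0.05 on the adjusted p. The receptors of the neutrophil factors themselves were absent or nearly so. Of 14 listed receptor genes, 8 had too few reads to be tested, and Cxcr1, Ackr1, Csf2ra and Csf3r had 0 counts in every library. Cxcr2, the receptor of the 4 chemokines, had 6, 0 and 8 counts in DMSO and 0, 0 and 3 after P3FI-90. Csf2rb, the signalling chain of the GM-CSF receptor, had at most 2 counts in a library, and its paralog Csf2rb2 at most 8. Slc22a17, described as a receptor of lipocalin 2, had 9, 8 and 7 counts in DMSO and 0 in each P3FI-90 library.

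Among the 6 receptor genes tested, 3 rose, 1 fell and 2 were not called, with a median log2 fold change of 0.47. Il6st, which encodes the shared chain gp130 of the IL-6 family, rose from 4017 ± 106 to 7799 ± 261 (normalized counts, SD, n = 3), or by 0.96 on the log2 scale (SE 0.038, edgeR adjusted p = 1.95e-11). Osmr, a partner chain of gp130, rose by 0.96 (SE 0.083, adjusted p = 8.24e-08). Csf1r, the receptor of M-CSF, had 34, 52 and 27 counts in DMSO and 114, 147 and 128 after P3FI-90, and rose by 1.56 (SE 0.29, adjusted p = 2.00e-04). The chain Il6ra stood at −0.01 (SE 0.074, adjusted p = 0.864), although under scaling by total counts it was called higher (0.20, adjusted p = 0.0226), which made 4 higher receptor genes. Lifr stood at −0.10 (SE 0.56, adjusted p = 0.877). The scavenger receptor Ackr3 was lower by −0.15 (SE 0.053, adjusted p = 0.0167), a call that was lost without the second DMSO library (adjusted p = 0.0685) and without the first (0.0566) or second (0.0541) P3FI-90 library, and under scaling by total counts the value was 0.06 (adjusted p = 0.302).

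Other secreted factors of myeloid recruitment and growth mostly rose. Of 19 listed genes 13 were tested, of which 10 rose, 1 fell and 2 were not called, with a median log2 fold change of 1.09. The edgeR calls of Tnf (adjusted p = 0.0457) and Saa3 (adjusted p = 0.0317) were both lost with the replicate block, which left 8 higher. Vegfa, the angiogenic factor, rose by 1.69 (SE 0.052, adjusted p = 1.40e-12), Kitl, the stem cell factor gene, by 1.81 (SE 0.072, adjusted p = 1.97e-11) and Ccl20, a ligand of CCR6, by 1.42 (SE 0.12, adjusted p = 8.64e-08). Il1a, the gene of interleukin 1 alpha, was the gene that fell, by −0.83 (SE 0.045, adjusted p = 4.88e-10). The neutrophil alarmin genes S100a8 and S100a9 had at most 4 and 0 counts in a library.

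Of the 12 listed transcription factors 11 were tested, and 8 fell, 2 rose and 1 was not called (6 and 3 under scaling by total counts), with a median log2 fold change of −0.32. Nfkbiz, which encodes the NF-κB cofactor IκBζ, fell from 4119 ± 49.9 to 1438 ± 107 normalized counts (log2 fold change −1.52, SE 0.055, adjusted p = 7.76e-12), and the immediate early gene Egr1 fell by −1.89 (SE 0.099, adjusted p = 3.52e-10). The C/EBP genes Cebpa, Cebpb and Cebpd fell as well, by −2.60 (SE 0.66), −0.78 (SE 0.071) and −1.13 (SE 0.15), with Cebpa at no more than 22 counts in a library. In contrast Rela, the gene of the NF-κB subunit p65, rose from 2835 ± 113 to 12228 ± 262 normalized counts (2.11, SE 0.039, adjusted p = 1.37e-14), and Ets2 rose by 0.61 (SE 0.038, adjusted p = 2.63e-09).

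All 13 listed regulators of cytokine mRNA stability were tested, and 5 rose, 5 fell and 3 were not called, with a median log2 fold change of −0.0063. Under scaling by total counts 7 rose and 3 fell. Rc3h2, a paralog of the Roquin gene, rose by 1.76 (SE 0.043, adjusted p = 1.71e-13), and Hnrnpd fell by −0.42 (SE 0.032, adjusted p = 1.90e-08). The gene of the endonuclease Regnase-1, Zc3h12a, fell by −1.51 (SE 0.060, adjusted p = 2.07e-11), and Zfp36l2, whose product binds AU-rich elements, fell by −1.04 (SE 0.036, adjusted p = 5.12e-12). Of 12 genes for signalling below the receptors, 7 fell, 3 rose and 2 were not called, while under scaling by total counts 5 fell and 5 rose. Among them Jak2 fell by −0.51 (SE 0.041, adjusted p = 3.32e-08), the feedback inhibitor gene Socs3 by −0.85 (SE 0.079, adjusted p = 1.89e-07) and the adaptor gene Shc1 by −0.49 (SE 0.041, adjusted p = 5.22e-08), and the adaptor gene Gab1 rose by 1.02 (SE 0.077, adjusted p = 2.10e-08).

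**Figure D5:**
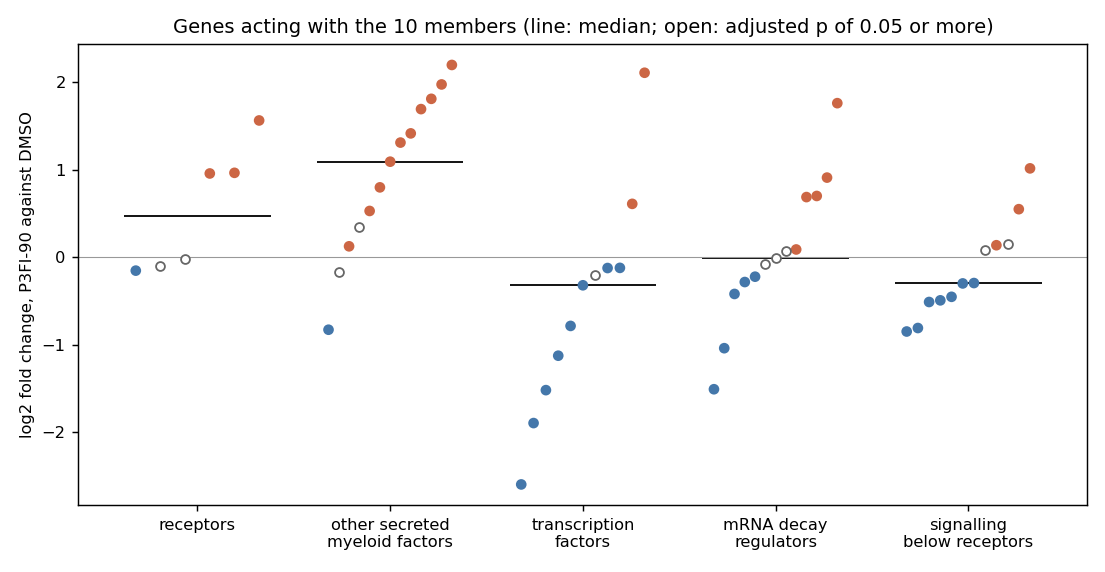
Log2 fold change of each tested gene in the 5 lists of genes related to the 10 members, with filled points (orange-red higher, blue lower) for calls, open points for genes not called and a line at the median. The medians are 0.47 for receptors, 1.09 for other secreted factors, −0.32 for transcription factors, −0.0063 for mRNA decay regulators and −0.30 for signalling below the receptors.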

How the data were processed

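Libraries made with an mRNA kit from 4T1 cells, 3 per group, were analysed from a table deposited by the authors, which holds raw, whole-number read counts for each gene. Per the submitters' processing notes, GRCm39 was the build and CASAVA, HISAT2 and StringTie were used; the counting tool, annotation and strandedness are not given in the sources used here. Of 22401 rows, 285 assembled transcripts without a gene name (0.483% to 0.556% of counts) were left out. More genes had 2 counts than 1 in every library, so both mates of a pair may have been counted.

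Low genes were removed by edgeR's filterByExpr (minimum count 10) in R 4.3.3, and the others were scaled by TMM and tested by edgeR 4.0.16's quasi-likelihood test with Benjamini-Hochberg adjustment. The members and gene lists were chosen with earlier results of these data known. Named from each list were the 4 genes with the smallest p and the receptors of members; for likeness, the 3 nearest genes. Cebpa, Cebpb, Cebpd, S100a8, S100a9 and the chromosomal neighbours were named after their values were seen. The chi-square per gene between 2 libraries of the same group was 5.58 to 8.60, above sampling noise, so none was another library sequenced again. This value cannot show whether the libraries came from separate cultures. Equally numbered libraries did not deviate together (r from −0.0487 to −0.0266), so they were not treated as pairs.

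Alternatives were other scalings, filters, DESeq2 1.42.0, voom of limma 3.58.1 (the study named limma), a replicate block, and leaving out each library. The tests were checked on simulated counts in which few genes changed, equally often up and down. That check does not cover the scaling of data in which most genes differ. Lengths, shared transcript windows and exon overlaps came from GENCODE M21, a GRCm38 annotation, and promoters and gene order from RefSeq GRCm38.p6. Intervals and floors cover counting error only.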

Additional observations from a re-analysis of the deposited data

How the results depend on the processing

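Over 16 alternatives (2 of them, halved counts and kept assembled transcripts, chosen after seeing the data), none of the 10 log2 fold changes changed sign. Il6 could not be fitted with at least 10 counts required in every library. Of their values under the alternatives, 150 moved by less than the spread between libraries and 9 by more, 8 of these under scaling by total counts, which raised the median over all genes from 0.013 to 0.23 and gave 6177 higher and 3641 lower genes in place of 4908 and 4841. A change of scaling shifts all genes by nearly the same amount, so the members shifted with the median. Cxcl5 stood at −2.78 in place of −3.00, Csf3 at −1.67 in place of −1.89 and Cxcl2 at −0.06 in place of −0.28. Under each of the 16 alternatives, 7 or 8 of the members lay entirely below DMSO. This count uses the scaled counts only, so a change of test could not alter it, and nothing is read from it.

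Among the lists, higher signalling genes numbered 5 in place of 3 under DESeq2 size factors, total counts, at least 10 counts in every library and halved counts. Lower receptor genes numbered 0 under total counts (with 4 higher in place of 3), 2 with no filter and 0 to 1 with a library left out. Lower mRNA decay genes numbered 3 under total counts, and lower secreted factors 2 under the upper quartile. The replicate block gave 4802 higher and 4722 lower genes and left these list counts within 1.5 times. With 3 libraries a group, an exact two-sided permutation test cannot go below 0.1. Depth limits Cxcl2 and the receptors, and depth and the spread in DMSO limit Il6.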
